A study of Mus musculus with 23 samples.

Results

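Duox2 encodes dual oxidase 2, an NADPH oxidase of the apical membrane of epithelial cells, and Duoxa2 encodes dual oxidase maturation factor 2, its partner protein. The members were taken by symbol from the gene table of bulk RNA sequencing of mouse pancreatic tumor cells, and they are 2 of its 27207 genes. Both were picked with their levels in these libraries known, so their levels and differences are given below as a description without a test. Both passed the filter on low counts, as did 11144 genes in all.

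Dual oxidases move electrons from NADPH inside the cell to oxygen outside it and release hydrogen peroxide. DUOX2 leaves the endoplasmic reticulum and works at the cell surface only when DUOXA2 is made in the same cell. The pair supplies the hydrogen peroxide for thyroid hormone synthesis, and in the gut, airway and ducts it serves as an inducible defence at the mucosal surface, where haem peroxidases can use the peroxide against microbes. DUOX1 and DUOXA1, made from the neighbouring genes, form the paralogous pair.

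The libraries came from primary tumor cells of KC (Ptf1a Cre/+) and KPC (Pdx1 Cre/+) mice. Both are models of pancreatic cancer in which Cre is driven from a pancreatic promoter. The titles of the first batch share a line number, but whether the KC cells of the second batch are of that line is not stated. KC cells were grown in 2D (n = 6), as organoids in growth factor-reduced Matrigel for 13 days (n = 3), or as organoids in floating collagen for 7 days (n = 3) or 13 days (n = 5 in a first batch and n = 3 in a second, as labelled), and KPC organoids were grown in collagen for 13 days in the second batch (n = 3). 2D cells were lysed directly, whereas organoids were freed with collagenase before lysis, and libraries of RNA 3′ ends carried unique molecular identifiers. Nothing states that the replicates came from separate mice, so the errors are read as the spread between cultures and not between mice.

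Counts per library ran from 1221451 to 2471058. The 2D libraries 1 to 3 stood apart, with TMM factors, which correct the library size for its composition, of 0.738 to 0.772, against 1.03 to 1.06 in the 2D libraries 4 to 6 and 0.944 to 1.13 elsewhere. Levels are given as CPM, counts scaled to the corrected library size. The summed level of 9 markers of ductal epithelium was 7181 to 14010 CPM over the libraries, most of it from keratins. Single markers differed between groups. Of 8 tested with edgeR, 3 were higher and 0 lower in Matrigel than in first-batch collagen at an adjusted p under 0.1. Over all genes tested, 6.62% were higher and 6.29% lower. At day 7, 2 were higher and 3 lower than at day 13, against 28.1% and 27.1%. Epcam differed most, at 165.3 ± 15.1 CPM in Matrigel, 56.2 ± 13.4 in first-batch collagen and 5.87 ± 1.73 at day 7 (SD). Of 4 thyroid markers in the table, Pax8 had 0 to 6 counts in each library and Tg, Slc5a5 and Foxe1 had 0 counts in all 23.

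Both members lie on chromosome 2 (GRCm38, GENCODE M21), between 122279247 and 122298449 on the minus strand for Duox2 and between 122298900 and 122302885 on the plus strand for Duoxa2. They stand head to head with 450 bp between them in this annotation, whereas the RefSeq extent of Duox2 reaches further towards Duoxa2. The 159 bases just before the start of Duoxa2 (chr2:122298741-122298899, plus strand, RefSeq promoter table on GRCm38.p6) are shown because they are the part of the shared upstream sequence that lies outside both genes in both annotations.

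Duoxa2 upstream: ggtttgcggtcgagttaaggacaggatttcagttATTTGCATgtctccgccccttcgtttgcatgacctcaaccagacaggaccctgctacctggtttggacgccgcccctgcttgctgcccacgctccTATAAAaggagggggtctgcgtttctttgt

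Capitals mark the octamer ATTTGCAT and the TATA letters TATAAA, the latter beginning 30 bases before the start of Duoxa2, and the stretch is 54.7% G or C. Of 32851 promoter windows of the same table (250 bases before to 50 after the start, both strands searched), 1.74% held the octamer and 13.6% held TATAAA. The Duoxa2 window also held the AP-1 letters TGANTCA, 168 bases before the start and found in 7.81% of windows. This motif equals its own reverse complement and overlapped neither of the other motifs. This site lies before the printed stretch. The Duox2 window of the table was set on another start (122298227) than that of GENCODE (122298449), so that it lies mostly inside the gene as GENCODE has it and most of the sequence upstream of that start was not searched from the side of Duox2. It held CCAAT on the reverse strand, which is in 37.4% of windows. The Duox2 window ended at 122298477 and the Duoxa2 window began at 122298650, so the bases between them were not searched. The letters TTCNNNGAA of STAT sites, in 8.30% of windows, were not found in the Duoxa2 window. A match is a description of letters and not of binding.

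The levels of Duox2, the catalytic subunit, were highest in Matrigel, where 224, 218 and 137 counts gave 88.1, 95.04 and 79.8 CPM. In collagen at day 13, the first batch had 4.64, 4.795, 4.785, 10.8 and 11.03 CPM (10, 10, 10, 24 and 21 counts) and the second batch 24.5, 32.8 and 17.99 CPM (37, 47 and 27 counts). KPC organoids had 6.39, 4.79 and 11.1 CPM, from 10, 8 and 21 counts. Matrigel lay above the other groups in every library. Against first-batch collagen, 9.41% of the genes tested did so, and no such share was taken against the other groups. The second collagen batch lay above the first in every library, as in 18.1% of the genes tested, and KPC organoids overlapped with the first collagen batch. At day 7 in collagen, Duox2 had 5, 2 and 2 counts (2.45, 0.775 and 0.853 CPM), and in 2D it ran from 0.960 to 5.82 CPM with a median of 1.80, from 1 to 6 counts. A count of 3 corresponds to between 1.16 and 3.22 CPM over these libraries, so that most 2D and day 7 libraries were at or near the detection floor for Duox2.

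Duoxa2, the maturation factor, followed the same order of groups. It had 189.6, 214.1 and 199.9 CPM in Matrigel, from 482, 491 and 343 counts. In collagen at day 13 it had 16.7, 20.6, 4.79, 21.1 and 19.4 CPM in the first batch (36, 43, 10, 47 and 37 counts) and 75.5, 91.3 and 53.3 CPM in the second (114, 131 and 80 counts). KPC organoids had 10.9, 17.4 and 38.01 CPM from 17, 29 and 72 counts. Replicate 3 of the first collagen batch stood below the other 4 libraries of its group and within the range of day 7. At day 7 the levels were 4.41, 5.81 and 4.26 CPM (9, 15 and 10 counts), and in 2D they ran from 4.801 to 13.8 CPM with a median of 8.09. All 6 2D libraries had 10 to 14 counts of Duoxa2, and the higher CPM belonged to libraries 1 to 3 (9.70 to 13.8 against 4.801 to 6.48), which had the smaller corrected sizes.

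**Figure D1:**
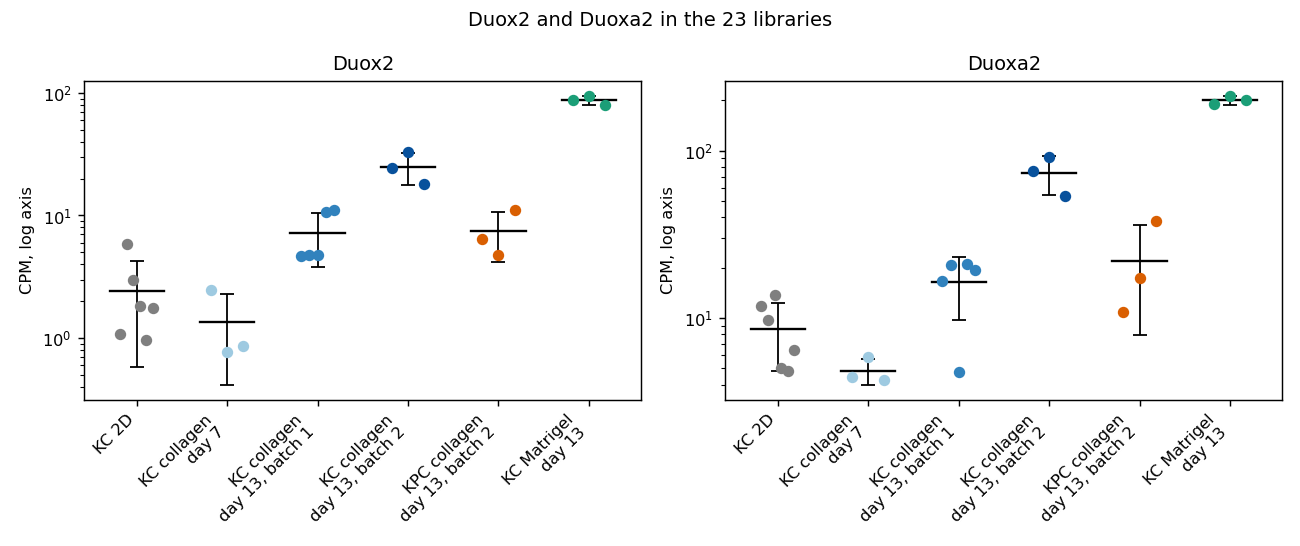
CPM of Duox2 (left) and Duoxa2 (right) in each of the 23 libraries on a log axis, by group; points are libraries, horizontal lines the group means and error bars the SD. The 3 Matrigel libraries sit at 79.8 to 95.04 CPM for Duox2 and 189.6 to 214.1 CPM for Duoxa2, above every other library. The share of all genes tested with such a gap was taken against first-batch collagen alone (9.41%).

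Ordered by their means, the groups ran for Duox2 from Matrigel (87.7 ± 7.61 CPM, SD, n = 3) over the second collagen batch (25.1 ± 7.41, SD, n = 3), KPC organoids (7.42 ± 3.27, SD, n = 3) and the first collagen batch (7.20 ± 3.37, SD, n = 5) to 2D (2.40 ± 1.82, SD, n = 6) and day 7 (1.36 ± 0.947, SD, n = 3). The same order held for Duoxa2, at 201.2 ± 12.3, 73.4 ± 19.1, 22.1 ± 14.2, 16.5 ± 6.77, 8.60 ± 3.75 and 4.83 ± 0.854 CPM (SD). In both genes the second collagen batch and KPC organoids did not overlap, as with 18.5% of the genes tested that were lower in every KPC library. Matrigel lay above both groups in every library. These comparisons of Matrigel also cross batch, and that with KPC crosses genotype, and no share over all genes was taken for them. KPC organoids and the first collagen batch overlapped, as did the first collagen batch and 2D, and 2D and day 7. The means of KPC organoids and the first collagen batch differed by less than the SD of either group in both genes, and those of 2D and day 7 by less than the SD of 2D for Duox2 and by about that SD for Duoxa2. The mean of the first collagen batch was above that of 2D by more than the SD of either group.

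Matrigel, a basement membrane extract in which the organoids form hollow spheres, was compared with collagen, in which they branch, within the first batch. The fitted log2 fold change was 3.60 (SE 0.250) for Duox2 and 3.60 (SE 0.274) for Duoxa2, a fold of 12.1 in each, and the 2 genes ranked 8 and 9 of 11144 from the highest fold change down. The ratio of the pooled counts was 12.3 for Duox2 (579 against 75 counts, exact 95% interval 9.69 to 15.9) and 12.2 for Duoxa2 (1316 against 173, 10.4 to 14.3), with intervals that cover counting error only. Every Matrigel library lay above every collagen library in both genes, as in 9.41% of the genes tested. In bulk RNA, a larger share of cells with these transcripts and more RNA per cell cannot be told apart. With the 3 libraries of the second collagen batch added to the reference, the values were 2.74 and 2.46. Immune markers moved with the matrix. Of a list of 11 genes, 6 were in the table, and they summed to 223.5 to 258.5 CPM in Matrigel and 80.6 to 119.2 CPM in first-batch collagen, mostly from Cd14 (209.8 ± 15.1 against 88.4 ± 20.1 CPM, SD) and Cd68 (32.9 ± 3.15 against 16.3 ± 4.45). The leukocyte marker Ptprc had 3 counts in each of these groups, Lyz2 had 0, and the part of such cells in the result was not tested.

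Over time in collagen, where branched organoids were sampled early and late, both members had their lowest group means at day 7. Relative to day 13, the log2 fold change at day 7 was -2.41 (SE 0.507) for Duox2 and -1.75 (SE 0.434) for Duoxa2. The pooled counts at day 13 were 5.55 times those at day 7 for Duox2 (interval 2.77 to 12.6, from 75 against 9 counts) and 3.39 times for Duoxa2 (2.33 to 5.05, from 173 against 34). Every day 7 library lay below every day 13 library for Duox2, as in 22.9% of the genes tested, but not for Duoxa2, for which replicate 3 of day 13 overlapped. Immune markers were lower at day 7 as well, with a summed level of 50.3 to 61.98 CPM against 80.6 to 119.2 CPM. Both tested markers were called lower, where 27.1% of the genes tested were. Cd14 was at 50.8 ± 5.08 against 88.4 ± 20.1 CPM (SD, log2 fold change -0.80, adjusted p = 2.38e-04) and Cd68 at 4.61 ± 1.06 against 16.3 ± 4.45 (-1.80, adjusted p = 1.00e-04). The part of these markers in the result was not tested. Without day 7 replicate 1, which held 5 of the 9 counts, the value for Duox2 was -3.04, and with a prior count of 2 it was -1.79.

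KC cells in 2D had less of both transcripts than the first collagen batch, with log2 fold changes of -1.71 (SE 0.411) for Duox2 and -1.10 (SE 0.355) for Duoxa2. The groups overlapped in both genes. The summed immune markers were higher in 2D, at 178.3 to 222.0 CPM against 80.6 to 119.2 CPM, but the 2 tested with edgeR differed in direction. Cd14 was higher (194.0 ± 19.2 against 88.4 ± 20.1 CPM, SD, log2 fold change 1.14, adjusted p = 1.95e-07). Cd68 was lower (9.63 ± 4.87 against 16.3 ± 4.45, -0.83, adjusted p = 0.0148). Over all genes tested, 26.3% were higher and 23.3% lower, and the part of these markers in the result was not tested. Without the 2D libraries 1 to 3 the values were -2.24 and -1.65, and without the 2D libraries 4 to 6 they were -1.08 and -0.49, so the size of this difference depended on which 2D libraries entered.

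KPC organoids had less of both transcripts than KC organoids grown beside them in collagen. The log2 fold change was -1.72 (SE 0.355) for Duox2 and -1.70 (SE 0.340) for Duoxa2, and KC had 3.29 times (interval 2.26 to 4.86) and 3.18 times (2.57 to 3.96) the pooled counts. The groups did not overlap in either gene, as with 18.5% of the genes tested that were lower in every KPC library. KPC replicate 3 was the highest for both members, and without it the values were -2.16 and -2.36. The summed immune markers were at 65.2 to 84.3 CPM in KPC against 94.1 to 127.1 CPM in KC organoids, without overlap. Cd68 was lower in KPC (7.41 ± 4.03 against 18.9 ± 0.890 CPM, SD, -1.32, adjusted p = 0.0158), where 10.4% of the genes tested were lower. Cd14 was not called (68.4 ± 9.02 against 89.9 ± 16.4, adjusted p = 0.157), and the part of these markers in the result was not tested. The genotypes differ by Cre driver, tumor alleles and mouse at once, which cannot be told apart.

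The second batch of KC collagen organoids exceeded the first by a log2 fold change of 1.79 (SE 0.302) for Duox2 and 2.15 (SE 0.298) for Duoxa2, although genotype, matrix and day carried the same labels. The sample titles give a line number in the first batch alone, so that a difference of line cannot be told apart from batch. The pooled ratio was 3.49 (interval 2.58 to 4.74) and 4.42 (3.67 to 5.35), and the batches did not overlap in either gene, as for 18.1% of the genes tested. The summed immune markers of the batches overlapped, at 94.1 to 127.1 and 80.6 to 119.2 CPM. In size, this difference was no smaller than that between KPC and KC. Against all 8 KC collagen libraries of day 13, KPC organoids were lower by a log2 fold change of -0.79 for Duox2 and -0.70 for Duoxa2. The comparisons with first-batch collagen share its 5 libraries, and the KPC and batch comparisons share the 3 libraries of the second batch, so that the values are not independent of one another.

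The 2 members moved in step over the groups. Over the 23 libraries, the Pearson correlation of log2 CPM was 0.95 and the Spearman correlation 0.89, given as a description since the points share groups. Without the Matrigel libraries r was 0.89 (n = 20), and for the deviations from the group means it was 0.46. Duoxa2 made up 71.0% of the counts of both genes (832 of Duox2 and 2033 of Duoxa2, exact 95% interval 69.3 to 72.6). The share was 69.5% in Matrigel (67.3 to 71.5), 69.8% in the first collagen batch (63.6 to 75.4), 74.5% in the second (70.2 to 78.6), 75.2% in KPC organoids (67.6 to 81.7), 77.9% in 2D (67.7 to 86.1) and 79.1% at day 7 (64.0 to 90.0). By library, the share was 68.3% to 71.5% in Matrigel and 73.6% to 75.5% in the second collagen batch, without overlap, and the libraries of the other groups ranged on both sides of the Matrigel libraries. The lowest library was replicate 3 of the first collagen batch, with 10 counts of each gene, a share of 50.0% (27.2 to 72.8).

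**Figure D2:**
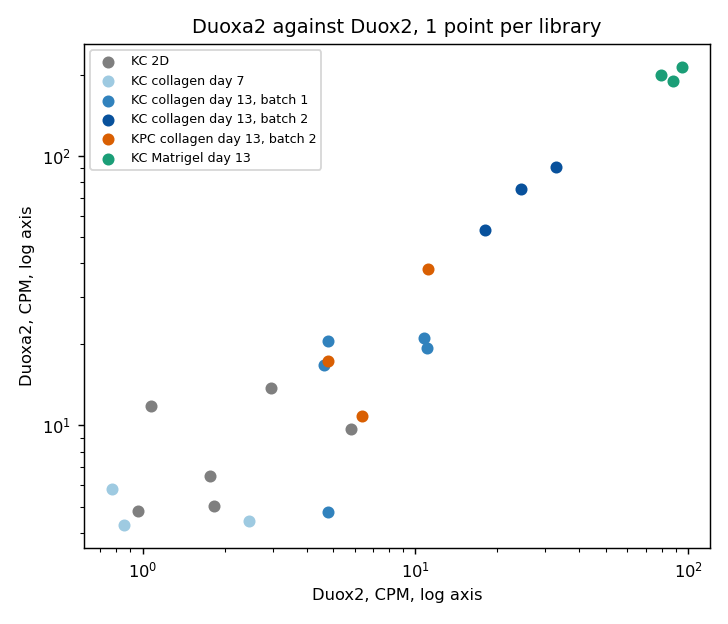
Duoxa2 against Duox2 in CPM, both on log axes, with 1 point per library colored by group. The Matrigel libraries stand at the upper right and the day 7 and 2D libraries at the lower left; replicate 3 of the first collagen batch lies below the others, with 4.79 CPM of each gene.

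The paralogous pair was close to the floor. Duox1, which lies on chromosome 2 between 122315672 and 122347972, had 0 to 2 counts in every library and 11 in all, and was not tested. Duoxa1 had 7, 13 and 7 counts in Matrigel and 0 to 4 in the other libraries, 58 in all, and was not tested either. The pooled ratio of Duoxa1 between Matrigel and first-batch collagen was 5.39 (27 against 8 counts, interval 2.38 to 13.7). Its 3′ end runs into that of Duoxa2 from the opposite strand, with 682 bp of shared exon. Whether the counting used the strand is not given in the sources used here, and counts of the pair at this overlap are therefore uncertain, also those of Duoxa2.

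Sord, which encodes sorbitol dehydrogenase of the polyol pathway, is the nearest other gene on the Duox2 side, 13906 bp away on the plus strand (122234749 to 122265340). It was not part of the choice of members, and it was tested in the fit across all genes (edgeR quasi-likelihood test, Benjamini-Hochberg adjusted p under 0.1). In Matrigel it had 235.3, 265.1 and 269.2 CPM, against 90.9 to 122.9 CPM in first-batch collagen, a log2 fold change of 1.27 (SE 0.126, adjusted p = 9.71e-08) where 12.9% of the genes tested were called. The groups lay far apart. At day 7 it was at 27.95, 30.99 and 28.1 CPM, lower than at day 13 with a log2 fold change of -1.87 (adjusted p = 2.54e-10, 55.1% of genes called). Sord was also lower in 2D (-0.40, adjusted p = 0.00608, 49.6% called) and in KPC organoids (-0.63, adjusted p = 0.00519, 19.9% called), and higher in the second batch than in the first (0.43, adjusted p = 0.0159, 37.3% called). It thus changed in the 5 comparisons in the direction in which the members differed. At day 7 its log2 fold change was larger in size than that of Duoxa2, and in the other comparisons it was smaller than that of either member. In 2D, the call was lost without the libraries 4 to 6 (-0.23, adjusted p = 0.143).

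Of the 13 protein-coding genes annotated within 200 kb of Duox2, 10 were in the table and 6 passed the filter, the members, Sord, Shf, B2m and Spg11. Shf, an SH2-domain adaptor beyond Duox1, fell in 2D (log2 fold change -0.57, adjusted p = 0.00886), in KPC organoids (-0.94, adjusted p = 0.00682) and at day 7 (-0.40, adjusted p = 0.0841) but was not called in Matrigel or between batches. B2m, the light chain of MHC class I, fell at day 7 (-0.90, adjusted p = 9.13e-07), and Spg11 rose in the second batch (0.90, adjusted p = 0.0766). Shf at day 7 and Spg11 lost their calls at a threshold of 0.05 and without single libraries. The fall of Shf in 2D was not called without the 2D libraries 1 to 3 (-0.29, adjusted p = 0.122).

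**Figure D3:**
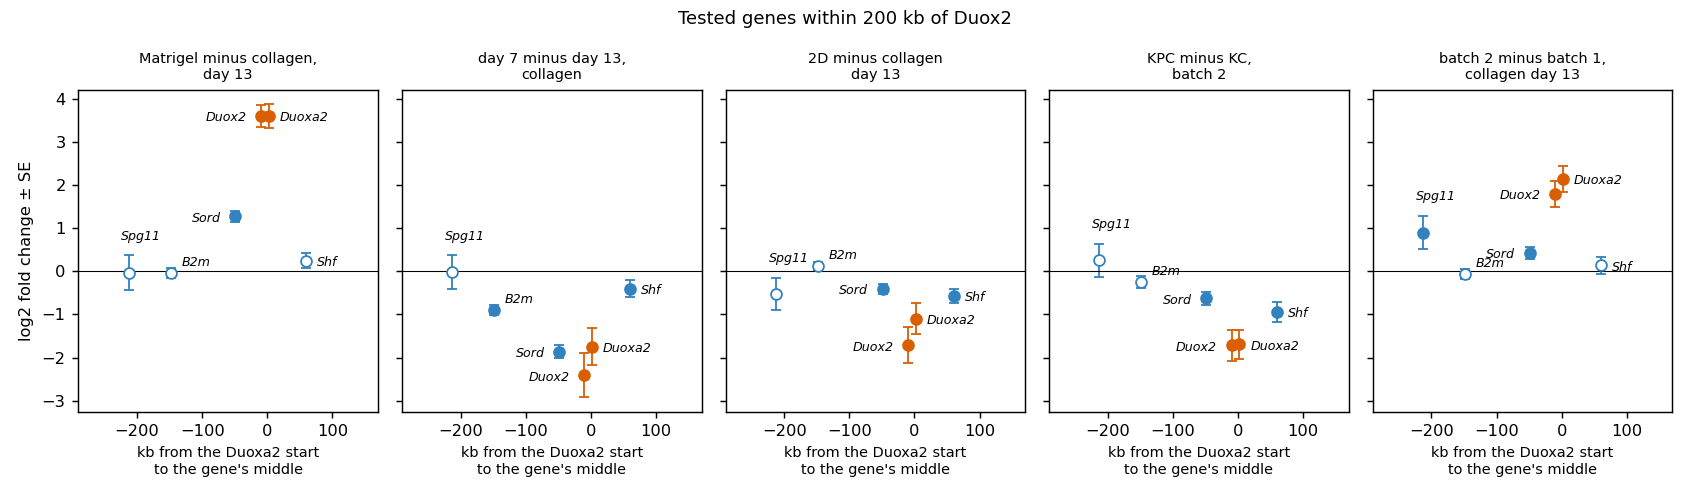
Log2 fold change ± SE of the tested genes within 200 kb of Duox2 in the 5 comparisons, against the distance of the gene's middle from the Duoxa2 start in kb; orange points are the members, which carry no test, filled blue points were called and open points were not. Sord lies on the same side of 0 as the members in every comparison, at 1.27 in Matrigel and -1.87 at day 7.

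The other NADPH oxidases and their subunits were then read as a group. Of 17 listed genes beside the members, 14 were in the table and 7 were tested. In Matrigel, 2 rose and 1 fell, where 6.62% of the genes tested rose and 6.29% fell. Nox1 passed the filter on low counts only through Matrigel and was thus bound to differ there, and without it, a reading added after seeing the data, the median log2 fold change of the list was 0.04. Nox1, the superoxide-forming oxidase of colon epithelium, had 21, 17 and 17 counts in Matrigel (8.26, 7.41 and 9.91 CPM) and 1 to 6 counts in first-batch collagen, a log2 fold change of 2.93 (SE 0.488, adjusted p = 1.91e-04), and Noxo1, its organizer subunit, rose from 4.43 ± 1.18 to 10.3 ± 1.78 CPM (SD, 1.19, adjusted p = 0.00836). Rac1, the small GTPase that activates NOX1, fell by 0.32 on the log2 scale (adjusted p = 0.0414), a call that was lost when totals alone set the scale (adjusted p = 0.399) and without Matrigel replicate 2 or 3. Noxa1, the activator subunit, was at 4.31 ± 1.54 against 3.49 ± 1.41 CPM (adjusted p = 0.819), Cyba at 296.0 ± 58.2 against 232.7 ± 6.69 (adjusted p = 0.56), Cybc1 at 23.4 against 26.7 (adjusted p = 0.61) and Txndc11, a DUOX-binding thioredoxin-like protein, at 33.4 against 41.4 (adjusted p = 0.261). With Nox1, the median log2 fold change of the 7 genes was 0.27, against -0.01 over all genes tested.

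At day 7, 1 of these 7 genes was higher and 4 were lower than at day 13, where 28.1% of the genes tested were higher and 27.1% lower. Noxa1 (-1.72, adjusted p = 0.0209), Noxo1 (-1.44, adjusted p = 0.00517), Cybc1 (-0.80, adjusted p = 0.00129) and Txndc11 (-0.55, adjusted p = 0.00491) fell and Rac1 rose (0.45, adjusted p = 5.09e-04), with a median of -0.80 against 0.01 over all genes. With all 8 collagen libraries of day 13 as the reference, Txndc11 was not called (adjusted p = 0.217). In 2D, Cyba was higher (0.80, adjusted p = 0.0108), and Noxo1 (-0.75, adjusted p = 0.0728), Rac1 (-0.23, adjusted p = 0.0249) and Txndc11 (-0.41, adjusted p = 0.0156) were lower, where 26.3% of the genes tested were higher and 23.3% lower. The value of Cyba reversed to -0.19 (adjusted p = 0.144) without the 2D libraries 1 to 3, where Txndc11 also lost its call (adjusted p = 0.122), and Noxo1 was not called without the libraries 4 to 6 (adjusted p = 0.388) by DESeq2 (adjusted p = 0.133) or without single libraries. Against all 8 collagen libraries of day 13, Txndc11 was not called in 2D (adjusted p = 0.386). None of the 7 was called by edgeR between KPC and KC, where 9.58% of the genes tested rose and 10.4% fell, although 1 had an unadjusted p under 0.05 and 1 was called by DESeq2. Between batches, where 19.3% rose and 18.1% fell, Rac1 rose (0.23, adjusted p = 0.0789) and Txndc11 fell (-0.80, adjusted p = 9.14e-04), but Rac1 was not called when totals alone set the scale (adjusted p = 0.664) or without single libraries.

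The next list held haem peroxidases and genes of iodide and thiocyanate transport, which would use or support the peroxide of DUOX2. It also held other thyroid genes, such as Tg, Tshr and Pax8. Of its 15 genes, 9 were in the table and 3 were tested. All 3 rose in Matrigel, where 6.62% of the genes tested rose, namely Pxdn, a peroxidase of the basement membrane (13.1 ± 5.55 against 5.13 ± 1.69 CPM, SD, log2 fold change 1.35, adjusted p = 0.00577), Cftr, the apical anion channel that also passes thiocyanate (1.05, adjusted p = 0.022), and Ano1, a calcium-activated anion channel (0.54, adjusted p = 0.0187). Each lost its call without Matrigel replicate 1 (adjusted p = 0.131, 0.122 and 0.11). Cftr also lost it against all 8 collagen libraries of day 13 (adjusted p = 0.257). Ano1 (1.11, adjusted p = 6.74e-07) and Pxdn (1.28, adjusted p = 0.00138) were higher at day 7, the opposite direction to the members, Pxdn was higher in 2D (1.22, adjusted p = 0.00148), Ano1 was higher in KPC organoids (0.79, adjusted p = 0.00231) and Cftr was higher in the second batch (1.01, adjusted p = 0.0163, and 0.116 without second-batch replicate 3).

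Enzymes that form hydrogen peroxide from superoxide or remove it were measured in more depth, with 20 of 23 genes tested. Over all genes tested, the share called higher and lower was 6.62% and 6.29% in Matrigel, 28.1% and 27.1% at day 7, 26.3% and 23.3% in 2D, 9.58% and 10.4% in KPC and 19.3% and 18.1% between batches. In Matrigel 2 rose and 3 fell, with a median log2 fold change of -0.10. Gpx2, the epithelial glutathione peroxidase, had 19 to 21 counts in Matrigel and at most 9 elsewhere, and it passed the filter only through Matrigel (9.43 ± 2.10 against 1.80 ± 1.28 CPM, SD, 2.31, adjusted p = 0.00125), and Cat, catalase, fell most there (99.7 ± 14.5 against 164.6 ± 13.7, -0.72, adjusted p = 2.23e-04). At day 7, 9 were higher and 4 lower, with Txnrd1 at the top (1.21, adjusted p = 1.36e-08) and Gpx2 at the bottom (-1.92, adjusted p = 0.0537, 0.225 against all 8 collagen libraries and lost without single libraries). In 2D 10 were higher and 4 lower, from Gpx4 (1.34, adjusted p = 7.92e-04) to Cat (-0.61, adjusted p = 2.94e-05), but Gpx4 was at 0.15 (adjusted p = 0.357) without the 2D libraries 1 to 3. Between KPC and KC 2 were higher and 3 lower. Gpx2 had 3.39 ± 1.19 CPM (SD) in KPC and no count in the 3 KC libraries (adjusted p = 0.00638, and 0.15 against all 8), and Glrx, glutaredoxin, fell (-0.75, adjusted p = 0.00139). In the second batch 3 were higher and 7 lower than in the first, with Sod1, cytosolic superoxide dismutase, at the top (1.17, adjusted p = 4.15e-07) and Gpx2 at 0 counts in all 3 second-batch libraries (adjusted p = 0.0149).

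Genes of mucosal defence that cytokines and bacteria induce in epithelium, as they induce Duox2, were compared next. Of 22 such genes, 19 were in the table and 10 were tested, and a gene that passed the filter only by being high in 1 group was bound to differ. This applied to Lcn2, C3 and Ltf, which had at most 6, 6 and 10 counts in any library outside Matrigel and at least 70, 31 and 165 in it, and which were singled out after their values were seen. In Matrigel the other 7 rose, with a median of 1.31, where 6.62% of the genes tested were called higher. The list, like the others here, was chosen with earlier results of these data known, so its counts are a description and not a test. With the 3 included, the 10 tested genes rose, from Wfdc2, a secreted protease inhibitor (0.84, adjusted p = 0.00383), to Ltf, lactoferrin (110.5 ± 12.7 against 1.68 ± 1.096 CPM, SD, 5.96, adjusted p = 6.05e-13), with a median of 1.95 against -0.01 over all genes tested. At day 7, 4 fell, all among the 7, and 6 were not called, where 27.1% of the genes tested were lower, from Cxcl5, a neutrophil chemokine (-1.90, adjusted p = 9.24e-07), to Pigr, the receptor that carries IgA into the lumen (2.20 ± 0.658 against 21.6 ± 3.48 CPM, SD, -3.29, adjusted p = 2.01e-09). In 2D, where the members were low, 5 rose and 2 fell, against 26.3% and 23.3% of the genes tested. Wfdc2 was highest (1.77, adjusted p = 7.57e-09) and Pigr lowest (-2.20, adjusted p = 3.74e-08), and 2 rose and 3 fell without the 2D libraries 1 to 3. Between KPC and KC, 6 fell and 4 were not called, where 10.4% of the genes tested were lower. The fold was smallest in Wfdc2 (-0.56, adjusted p = 0.0808, and 0.106 against all 8 collagen libraries), and Wfdc2 was also lost without single libraries. Ltf had no count in the 3 KPC libraries against 1 to 6 counts in KC (adjusted p = 0.0161, and 0.113 without second-batch KC replicate 3). Pigr was the 1 gene called between batches, at 39.2 ± 5.31 against 21.6 ± 3.48 CPM (SD, 0.85, adjusted p = 0.00119), where 37.3% of the genes tested were called.

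**Figure D4:**
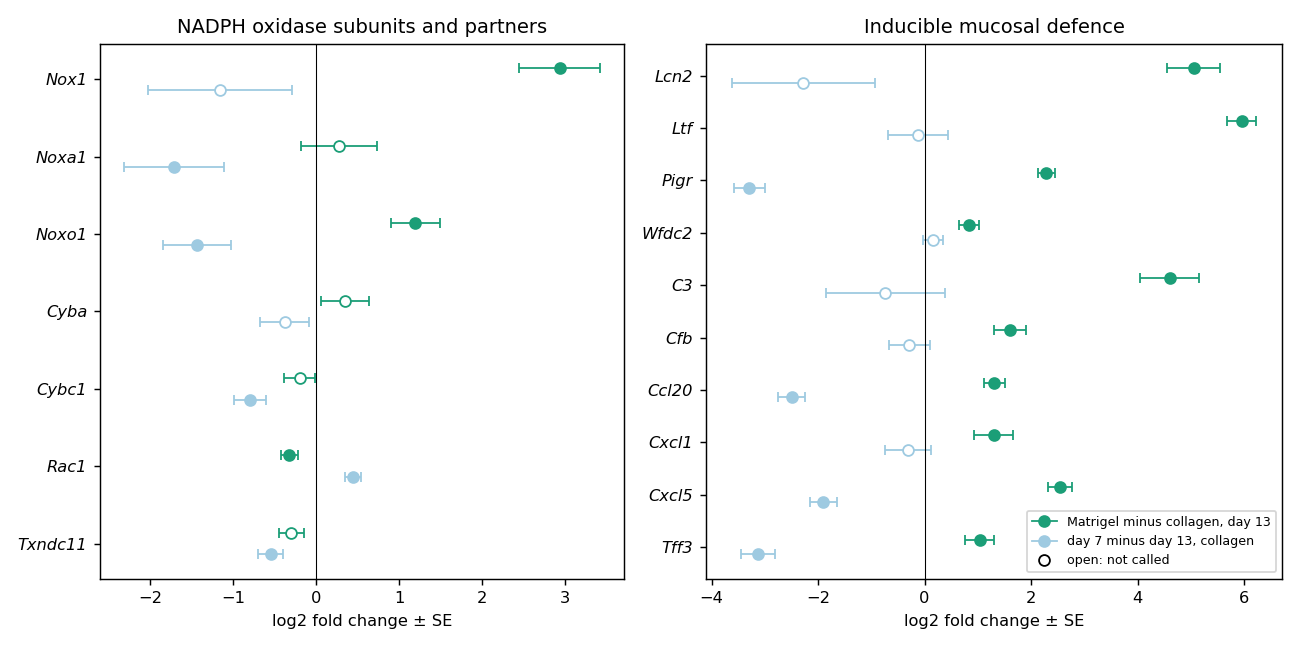
Log2 fold change ± SE of the tested NADPH oxidase genes (left, 7 genes) and of the tested mucosal defence genes (right, 10 genes) in Matrigel against collagen at day 13 (green) and at day 7 against day 13 in collagen (light blue); filled points were called and open points were not. All 10 defence genes lie above 0 in Matrigel, from 0.84 for Wfdc2 to 5.96 for Ltf, but Ltf, Lcn2, C3 and, at the left, Nox1 passed the filter only through Matrigel.

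Of 29 genes of the IL-17, Toll-like receptor, NF-κB, interferon and IL-22 pathways, which are known to raise Duox2 in other epithelia, 27 were tested. In Matrigel 3 rose and 2 fell, with a median of 0.14, where 6.62% and 6.29% of the genes tested were called. Cebpd, a transcription factor of the acute phase, rose most (91.0 ± 14.6 against 40.5 ± 2.40 CPM, SD, 1.16, adjusted p = 4.48e-06), and Socs3, an inhibitor of STAT3 signalling, fell most (-0.73, adjusted p = 3.71e-05). At day 7, 18 fell and 9 were not called, where 27.1% of the genes tested fell, with a median of -0.69 against 0.01 over all genes. Il17re, the receptor subunit of IL-17C, fell most (1.94 ± 0.881 against 24.7 ± 6.98 CPM, SD, -3.58, adjusted p = 3.66e-09), and Nfkb2 least (-0.39, adjusted p = 0.0871, lost at a threshold of 0.05, among other settings). In 2D 2 rose and 10 fell, against 26.3% and 23.3% of the genes tested, from Cebpd (0.79, adjusted p = 3.90e-05) to Elf3, an epithelial transcription factor (-1.40, adjusted p = 1.00e-05). Between KPC and KC, 2 rose and 6 fell, against 9.58% and 10.4%, from Il17re (0.82, adjusted p = 0.0189) to Zc3h12a, an RNase that ends inflammatory transcripts (-1.21, adjusted p = 0.00702). Between batches 4 rose and 5 fell, against 19.3% and 18.1%, from Nfkbia, the inhibitor of NF-κB (0.77, adjusted p = 1.74e-05), to Tlr2 (-1.49, adjusted p = 0.0713, lost without single libraries).

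The genes whose pattern was most like that of Duox2 were taken by the Pearson correlation of log2 CPM over the 23 libraries, among tested genes with a mean of at least 5 CPM. Duoxa2 came first of all 11144 genes at r = 0.95. It was followed by Spns2 (r = 0.89), an exporter of sphingosine-1-phosphate, Clca3b (0.89), a chloride channel accessory protein, Il1a (0.86), a cytokine of epithelial alarm, 4930523C07Rik (0.85), Alcam (0.85), a cell adhesion molecule, Tc2n (0.85), Serinc2 (0.85), the neighbour Sord (0.845) and Tmprss4 (0.84), a membrane serine protease. In Matrigel against first-batch collagen, Clca3b was at 36.4 ± 2.27 against 4.90 ± 3.18 CPM (SD), Il1a at 72.7 ± 4.47 against 36.0 ± 7.78 and Tc2n at 111.9 ± 7.60 against 38.7 ± 9.69. These genes were chosen on the same libraries and share the groups, so that the values carry no test. By Spearman correlation 4 of the 10 remained among the first 10, with Duoxa2 in place 4, and over the first batch alone 3 remained.

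**Figure D5:**
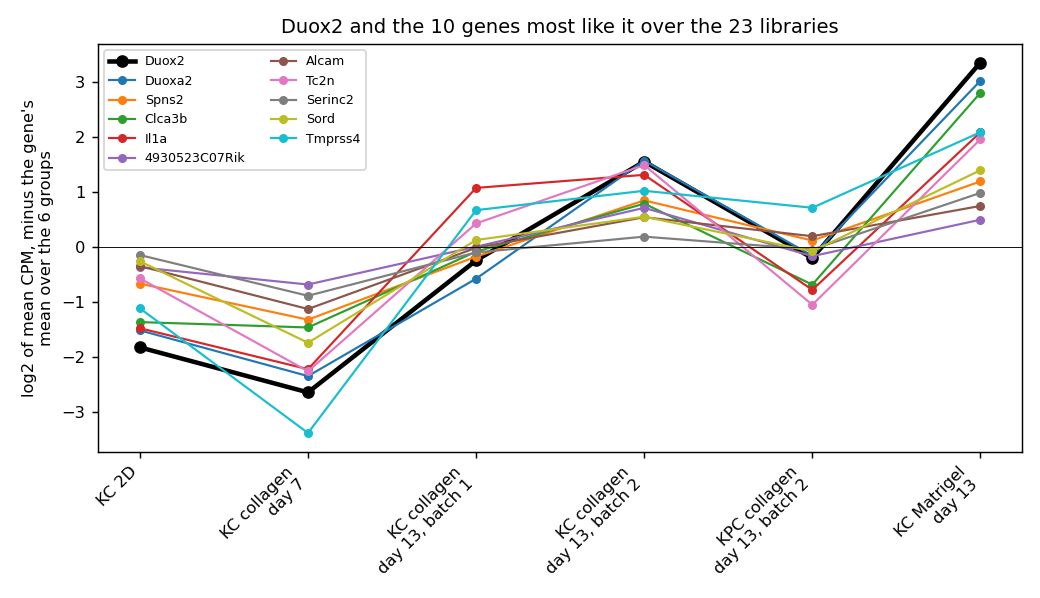
Log2 of the group mean in CPM, minus the gene's own mean over the 6 groups, for Duox2 (black) and the 10 genes with the highest Pearson correlation with it. All lines are lowest or near their lowest at day 7, and Duox2, Tmprss4 and Duoxa2 span the widest ranges.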

How the data were processed

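The authors deposited raw UMI counts per gene and library, made with the Drop-seq pipeline from 3′-end reads on GRCm38 (GENCODE M25) and not normalized, so that each count stands for 1 captured molecule and depth, not gene length, sets its precision. Counts of the 23 libraries in 6 groups were fitted together in R 4.3.3 with edgeR 4.0.16 (TMM, filterByExpr over the groups, quasi-likelihood test, prior count of 0.125). Genes with a Benjamini-Hochberg adjusted p under 0.1, the false discovery rate of the study, were called. DESeq2 1.42.0 was an alternative. Levels are CPM with TMM factors, and correlations used log2 CPM with a prior count of 2. Intervals of counts are exact at 95% and, like the floor of 3 counts, cover counting error only.

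The members and gene lists were chosen with earlier results of these data known. Named genes were the members, the paralogues Duox1 and Duoxa1, the tested genes of the oxidase and peroxidase lists, the neighbours within 200 kb, in each other list the called genes of highest and lowest fold change, and the 10 genes most like Duox2. Positions come from GENCODE M21 and sequence from RefSeq, in which all 4 dual oxidase genes were found. The fit was tested on simulated data with 200 changed genes. Of genes changed 2-fold it called 67% (KPC) to 87% (2D), and of genes changed 4-fold 93% (batches) to 99% (2D). A gene that was not called may therefore still differ. Protein sequences were not used here. The study's DESeq2 model had covariates for line, genotype, dimension, matrix and time, in place of which groups were used. Some alleles of the KC and KPC genotypes are not reported here.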

Additional observations from a re-analysis of the deposited data

Results flagged for a closer look

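In groups of 4 to 10 libraries, 86 sets of values were checked for a library far from the rest of its group, and 3 were found. Chance gives about 1 in 20, so that 3 are no more than chance would give. In first-batch collagen at day 13, replicate 3 was far below the other 4 libraries for Duoxa2, at 4.79 CPM against 16.7 to 21.1. The same library was low for Il1a, at 22.5 CPM against 36.9 to 41.3. Its Duox2 level was not apart, at 4.79 CPM. Replicate 4 of the same group was high for Nox1, at 2.69 CPM against 0.464 to 0.959, from 6 counts.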

How the results depend on the processing

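The fold changes of the 2 members kept their direction under all 144 alternatives, and 133 moved them by less than the spread between libraries. With all 8 KC collagen libraries of day 13 as the reference, Duox2 and Duoxa2 were at 2.74 and 2.46 in Matrigel, -3.27 and -2.89 at day 7, -2.57 and -2.21 in 2D and -0.79 and -0.70 in KPC. Duox2 was at -1.79 at day 7 with a prior count of 2 and at -1.08 in 2D without the 2D libraries 4 to 6, a setting chosen after seeing the data. The causes were not tested. Leaving out 1 library at a time gave log2 fold changes of 3.48 to 3.81 for Duox2 and 3.37 to 3.71 for Duoxa2 in Matrigel, -3.04 to -2.12 and -1.98 to -1.64 at day 7, -2.10 to -1.50 and -1.33 to -0.95 in 2D, -2.16 to -1.48 and -2.36 to -1.39 in KPC, and 1.56 to 2.00 and 1.91 to 2.33 between batches.

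The number of genes called in Matrigel against collagen was 1439, 954 with scaling by library size alone, and 874 to 1444 with 1 library left out (874 without Matrigel replicate 1 and 959 without replicate 3). In the other comparisons it ranged with 1 library left out from 5365 to 5951 (day 7), 4907 to 5654 (2D), 1594 to 1744 (KPC) and 3121 to 4263 (batches). Between KPC and KC 2223 genes were called, and 3431 when those groups were fitted alone. Scaling by library size alone moved the median log2 fold change of all genes by -0.20 in 2D, 0.13 in KPC and -0.18 between batches, and the share of called genes that were higher from 51.3% to 68.6% (Matrigel), 53.1% to 31.9% (2D), 48.0% to 67.9% (KPC) and 51.6% to 35.2% (batches). Of the 61 named gene and comparison pairs called, 40 kept their call under every alternative, and Cyba in 2D reversed (-0.19). At 1 to 6 counts a library in 2D and at day 7, depth limits Duox2 there.

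Replicate numbers are shared between groups, but none of the 17 same-numbered pairs of libraries deviated together by a correlation over 0.1 (-0.11 to 0.08), and 4 of 23 libraries correlated best with their own number. With the replicate block, 1560, 6088, 5694, 2437 and 4804 genes were called in the comparisons in the order above, and Duox2 and Duoxa2 in Matrigel were at 3.93 and 3.61.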
